A study of Sus scrofa with 16 samples.

Results

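The genes TLX1, NKX3-2, TCF21, VCAM1 and LTBR, 5 of the 19560 protein-coding genes (PCGs) of the pig annotation, were taken as genes of the spleen stroma, and the accessible chromatin around them was compared between newborn spleen and other tissues. They were chosen with these lists in view. TLX1 was included because newborn spleen had a strong peak at its promoter and the other lists had none, so its promoter is described and supports nothing further. Accessible chromatin regions were measured by ATAC-seq, in which a transposase cuts open DNA and inserts sequencing adaptors, in 16 libraries of nuclei from frozen tissue of female domestic crossbred pigs. Newborn pigs (day 0 in the labels) gave spleen, heart, kidney, liver, lung and skeletal muscle, while suckling pigs of 28 days and adults of 180 days gave liver. Each of the 8 groups had 2 replicates, and both were merged into 1 list of consensus peaks. The pigs were full-sib hybrids of the Berkshire and Tibetan breeds per the study's methods, the same newborn animals gave all tissues, and no treatment is described. Whole tissue was used, and in such bulk samples fewer cells of a type and less open chromatin per cell cannot be told apart.

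The spleen forms from a condensation of mesenchyme beside the stomach, which is patterned by homeobox and basic helix-loop-helix transcription factors before blood cells settle in it. TLX1 is a homeobox factor without which the spleen primordium is lost. NKX3-2 (also known as BAPX1) is a homeobox factor of the splanchnic mesoderm that is needed for the spleen to form and to separate from the pancreas. TCF21 (also known as capsulin or POD1) is a basic helix-loop-helix factor of visceral mesenchyme in spleen, kidney, lung and heart. After the primordium has formed, its stromal cells receive lymphotoxin through LTBR, a receptor of the tumour necrosis factor family that activates the canonical and the alternative NF-kB pathway. VCAM1, an adhesion molecule that binds the integrins of lymphocytes and blood progenitors, is carried by such stromal cells and by activated endothelium and is a known NF-kB target.

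The 250 bases before each transcription start site (TSS) are shown first, because the strongest spleen promoter peak of each gene lay over or beside them. They were read from the RefSeq sequence of Sscrofa11.1 on the strand of the gene, 5′ to 3′, with the TSS following the last base. Capitals mark matches on either strand to any of 9 short motifs that are spelled out with the results on sequence.
TLX1, chr14:112206714-112206963, plus strand: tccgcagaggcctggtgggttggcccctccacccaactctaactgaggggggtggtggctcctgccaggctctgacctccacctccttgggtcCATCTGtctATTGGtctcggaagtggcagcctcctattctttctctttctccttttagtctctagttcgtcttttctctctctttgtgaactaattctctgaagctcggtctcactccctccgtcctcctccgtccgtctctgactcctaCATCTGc
NKX3-2, chr8:9183341-9183590, minus strand: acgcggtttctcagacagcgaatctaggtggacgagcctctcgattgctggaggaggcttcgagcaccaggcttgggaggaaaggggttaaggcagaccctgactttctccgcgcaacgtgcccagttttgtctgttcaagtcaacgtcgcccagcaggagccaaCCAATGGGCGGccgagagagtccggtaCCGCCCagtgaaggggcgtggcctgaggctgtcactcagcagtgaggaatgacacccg
TCF21, chr1:29978274-29978523, minus strand: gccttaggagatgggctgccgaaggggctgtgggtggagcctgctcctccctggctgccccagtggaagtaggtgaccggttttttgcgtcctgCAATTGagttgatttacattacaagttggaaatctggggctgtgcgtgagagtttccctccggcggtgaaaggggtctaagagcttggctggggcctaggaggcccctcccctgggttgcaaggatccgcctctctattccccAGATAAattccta
VCAM1, chr4:117511212-117511461, minus strand: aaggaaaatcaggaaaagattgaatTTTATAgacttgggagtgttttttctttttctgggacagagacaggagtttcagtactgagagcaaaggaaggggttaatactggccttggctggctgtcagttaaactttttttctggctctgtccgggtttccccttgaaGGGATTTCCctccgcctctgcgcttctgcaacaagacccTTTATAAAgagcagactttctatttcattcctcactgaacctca
LTBR, chr5:64278423-64278672, minus strand: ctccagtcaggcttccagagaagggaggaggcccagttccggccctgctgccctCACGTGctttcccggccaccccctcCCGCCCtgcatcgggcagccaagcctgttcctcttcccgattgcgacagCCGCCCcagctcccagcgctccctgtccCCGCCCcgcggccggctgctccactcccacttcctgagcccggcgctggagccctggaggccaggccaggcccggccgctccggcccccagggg
VCAM1 had a further promoter peak that no other list overlapped, and its 291 bases are given on the strand of the gene because it was the only spleen-only promoter peak beside that of TLX1.
VCAM1 spleen-only peak, chr4:117512141-117512431, minus strand: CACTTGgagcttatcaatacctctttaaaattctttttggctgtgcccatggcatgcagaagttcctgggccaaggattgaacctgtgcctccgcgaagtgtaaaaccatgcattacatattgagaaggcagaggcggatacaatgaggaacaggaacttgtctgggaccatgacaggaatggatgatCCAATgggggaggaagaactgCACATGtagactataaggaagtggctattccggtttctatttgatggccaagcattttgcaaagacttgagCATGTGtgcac

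The lists held from 57126 peaks in muscle to 141689 in suckling liver, with 84327 in newborn spleen. For each peak they give the −log10 p of both replicates and an irreproducible discovery rate (IDR), the expected share of peaks at that level whose ranks do not hold up between replicates. A −log10 p grows with sequencing depth, so its value is never compared between lists here. Instead a peak is placed by its percentile, the percent of the peaks of its own list whose smaller replicate −log10 p is equal or lower, and each replicate was also ranked on its own. The lists carry no read counts, so no depth stands behind a single peak here, and a missing peak is one that was not called rather than a site measured as closed. Replicates were unevenly matched in some lists. The median −log10 p of the replicates was 8.61 and 16.2 in spleen, 6.15 and 22.5 in lung, and 24.8 and 8.66 in newborn liver. Peaks with an IDR of at most 0.05 made up 25.9% of the spleen list, against 19.2% in newborn liver and 50.4% in adult liver. A percentile depends on how many weak peaks its list holds. Orders of lists by percentile carry this limit, and no order is given here for lists filtered on IDR. Because each list pools its libraries and the genes were chosen in view of the lists, no statistical test was made.

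The spleen label was checked against promoters of marker genes. All 5 lymphoid markers (CD79A, CD79B, CD3E, PTPRC and SPI1) had a promoter peak in spleen, compared with 0 in heart, 1 in muscle, 2 in kidney, 2 in lung and 3 in newborn liver. Suckling liver had 4 and adult liver 3. By percentile, spleen was highest of the newborn lists for 3 of the 5. SPI1 stood at 28.4 in spleen and 60.4 in newborn liver, and CD79B at 9.28 in spleen and 15.0 in kidney. Fibroblast markers had a promoter peak for 4 of 5 in spleen, with DCN lacking it, 4 in kidney and from 1 to 3 in the other newborn lists. These 4 fibroblast promoters, of PDGFRA (80.9), PDGFRB (90.9), COL1A1 (90.5) and COL3A1 (66.0), ranked higher in spleen than in any other newborn list. For the 4 endothelial markers in the annotation, spleen, heart, kidney, newborn liver and lung each had a peak at all of them, and muscle at 2. All 5 erythroid markers had a promoter peak in spleen and ranked higher there than in any other newborn list, with 4 peaks in newborn liver and from 1 to 3 in the others. Mesothelial markers went different ways in spleen, where 2 of 4 had a peak. WT1 stood at percentile 90.4, above kidney (85.1) and the other newborn lists. LRRN4 stood at percentile 9.44, and UPK3B and KRT19 had no peak. None of the 4 pancreatic markers PTF1A, CPA1, INS and PDX1 had a promoter peak in spleen. Erythroid markers, and partly lymphoid and fibroblast markers, thus differed between spleen and the other newborn lists. They did so together with the genes described below, and their part in those results was not tested.

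Promoters were defined from 2.2 kb upstream to 500 bp downstream of the TSS. In newborn spleen all 5 genes had a promoter peak, where 68.8% of all PCGs had one. Heart had a promoter peak at 4 of the 5 (67.9% of PCGs), kidney at 4 (75.1%), newborn liver at 4 (73.5%), suckling liver at 4 (74.8%) and adult liver at 4 (69.7%), and TLX1 was the gene without one in each of these lists. Lung had a peak at 3, namely NKX3-2, TCF21 and LTBR (70.4% of PCGs), and muscle at 2, namely NKX3-2 and LTBR (61.4%). Promoter peaks in all 8 lists were present for NKX3-2 and LTBR, 2 of the 5 genes, where 56.7% of PCGs had them. The count of promoters with a peak therefore varied from 2 to 5 between lists, and the lowest count belonged to the shortest list.

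**Figure D1:**
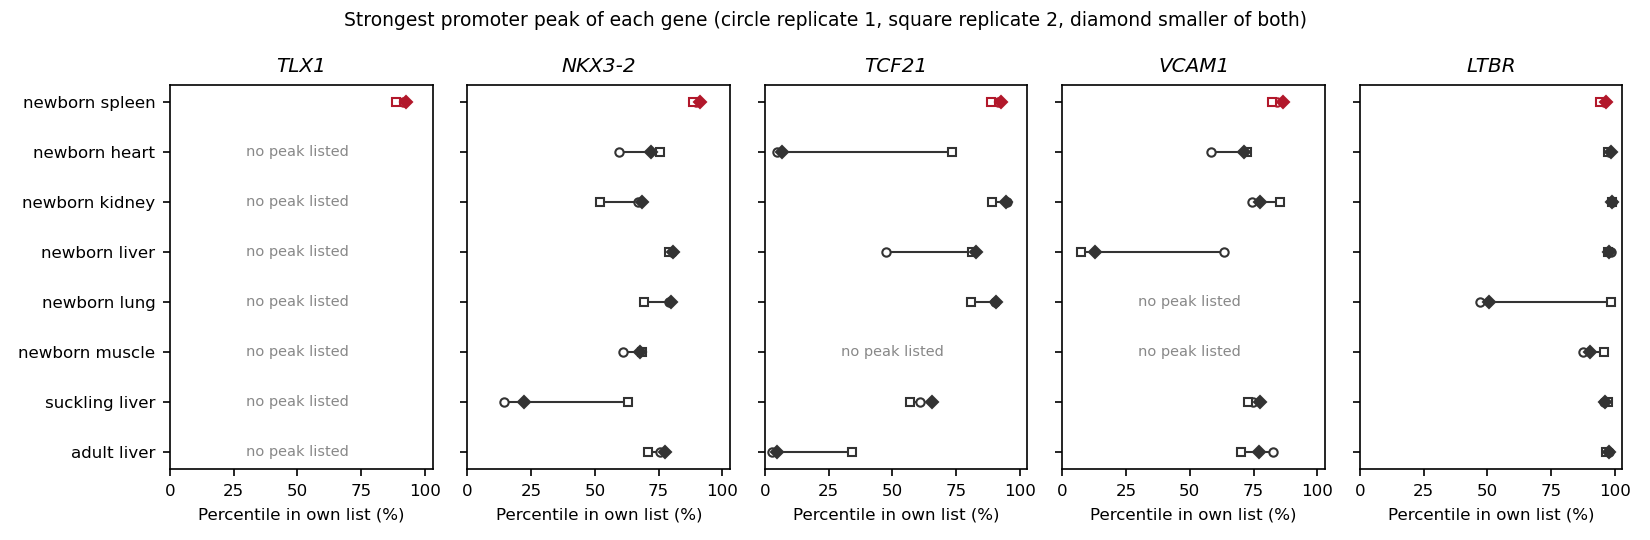
Percentile (%) of the strongest promoter peak of each gene within its own list, for 8 lists, with open circles for replicate 1, open squares for replicate 2 and filled diamonds for the smaller value of both. Spleen (red) holds the TLX1 promoter peak, at percentile 92.7, and the LTBR symbols crowd above 87 in all lists but lung, where replicate 1 stands at 47.1.

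TLX1 (GeneID 100157458) is on the plus strand of chromosome 14 at 112206964 to 112213957 and has 4 exons and 1 annotated TSS. Its promoter was accessible in newborn spleen and was listed in none of the other 7 lists, which is the property for which it was chosen. The peak covered 993 bp, from 112206420 to 112207412, with a summit at +95 bp in exon 1. Its −log10 p was 56.7 in replicate 1 and 76.9 in replicate 2, the percentile was 92.7 (91.4 and 88.8 for the replicates ranked alone), and the IDR was 0.00391, the lowest that the lists can hold. Both replicates placed it alike. The interval of replicate 1 ran from 112206587 to 112207412 with its summit at +83 bp, and that of replicate 2 from 112206420 to 112207285 with its summit at +107 bp.

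Promoters listed in spleen and in none of the other 7 lists belonged to 96 PCGs, or 0.491% of them. TLX1 ranked at place 3 of these 96 by percentile. The median percentile of the 96 was 37.1, and 12 of them had an IDR of at most 0.05, TLX1 included. Since TLX1 was selected on this peak, its place describes how strong the peak was and is not a finding.

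Around TLX1, the region from 25 kb before to 25 kb after the gene held 4 spleen peaks, and no other PCG lay in it. Another spleen-only peak, meaning that no peak of the other 5 newborn lists overlapped it, followed the gene at 112215206 to 112215905 with a summit at +8561 bp. It was weaker than the promoter peak, with −log10 p of 10.2 and 7.75, percentile 50.1 and IDR 0.423. The remaining spleen peaks were shared. One with its summit at −16448 bp (4.57 and 70.7, percentile 15.7, IDR 0.486) overlapped peaks of kidney, newborn liver, lung and suckling liver, and its replicates differed widely. One at +10835 bp (8.71 and 26.5, percentile 55.2, IDR 0.149) overlapped peaks of every list except muscle. Spleen also lacked a site that others had. An intronic site centred at +1664 bp was listed in heart, kidney, newborn liver and suckling liver and not in spleen. Muscle had no peak in the whole TLX1 region, and spleen had the greatest covered length there, 4662 bp against 3195 bp in kidney and 388 bp in adult liver.

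NKX3-2 (GeneID 100625162) lies on the minus strand of chromosome 8 at 9179061 to 9183340 and has 2 exons and 1 TSS. In contrast to TLX1, its promoter had a peak in all 8 lists, and by percentile that peak ranked highest in spleen. The spleen peak covered 685 bp from 9182964 to 9183648, with a summit at −63 bp, −log10 p of 47.1 and 73.2 and IDR 0.00402. Its percentile was 91.4, and the replicates ranked alone gave 89.8 and 88.3. The other lists followed with newborn liver at 80.8, lung at 79.8, adult liver at 77.5, heart at 72.0, kidney at 68.4, muscle at 67.7 and suckling liver at 22.1. For none of these 7 lists did the range of the replicate percentiles reach that of spleen, the nearest being newborn liver with 78.9 and 80.4. Suckling liver stood lowest and had 1 weak replicate, at −log10 p 4.54 against 16 in the other, and percentiles of 14.2 and 62.8. From newborn liver down to suckling liver, each list overlapped the next in this order in replicate range, so neighbours below spleen could not be ordered. Lists further apart could differ beyond the replicates. Newborn liver lay above adult liver (70.8 and 75.7) and suckling liver in both replicates. Summits agreed closely, lying between −67 and −46 bp in every list except heart, where the merged summit was at +39 bp. By IDR, adult liver at 0.00391 was slightly lower than spleen, and the other lists were higher.

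Spleen had few further peaks at NKX3-2. A single one with a summit at −4064 bp (12.4 and 15.1, percentile 68.7, IDR 0.175) was shared with kidney, newborn liver, lung, suckling liver and adult liver. Kidney had 7 peaks in the region, suckling liver 6 and newborn liver 5, against 2 in spleen, and none of the spleen peaks was spleen-only. When overlapping peaks of all lists were joined, 11 accessible regions were found, of which 9 lacked a spleen peak. Among those 9, a region centred at +5144 bp beyond the end of the gene was listed in kidney and in liver at all 3 ages. By percentile, NKX3-2 thus ranked highest in spleen at its promoter while the accessible sites in its surroundings were mostly those of kidney and liver. The end of BOD1L1, whose TSS lies at −71082 bp, reached into the region.

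TCF21 (GeneID 100152962) is on the minus strand of chromosome 1 at 29975280 to 29978273, with 2 exons and 1 TSS. Its promoter was accessible in 7 lists, and it ranked about as high in spleen as in kidney and lung. Heart, also named above as an organ of TCF21 mesenchyme, ranked far lower in the merged list. The spleen peak spanned 1007 bp from 29977518 to 29978524, with a summit at +31 bp in exon 1, −log10 p of 56.2 and 75.6 and IDR 0.00391. Percentiles were 94.7 in kidney (94.8 and 89.0 by replicate), 92.6 in spleen (91.3 and 88.7) and 90.6 in lung (90.2 and 81.0). The replicate ranges of kidney and of lung overlapped that of spleen, so these 3 lists could not be ordered. Newborn liver followed at 82.9 and suckling liver at 65.7. Heart and adult liver were far lower at 6.71 and 4.79, each with 1 weak replicate, namely −log10 p 3.96 against 18.3 in heart and 4.06 against 15.0 in adult liver. Replicates ranked alone gave 4.76 and 73.3 in heart and 2.96 and 34.2 in adult liver. Muscle had no peak in the entire TCF21 region.

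Downstream sites of TCF21 were shared between tissues. Spleen had 5 peaks in the region. Beside the promoter, an intronic peak at +2380 bp (percentile 20.1) was shared with kidney, newborn liver, lung and suckling liver, and peaks at +5228 bp (percentile 20.1) and +5647 bp (percentile 50.5) behind the gene were shared with kidney and lung among others. One spleen-only peak lay upstream at 29987801 to 29988071 with a summit at −9585 bp, but it was weak, with −log10 p of 6.97 and 6.47, percentile 40.9 and IDR 0.663. The region border mattered here. A spleen peak at 29949261 to 29949807 was 25.5 kb from the gene and so fell just outside, with percentile 74.4 and IDR 0.0238, above all TCF21 peaks inside the border but the promoter peak.

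LTBR (GeneID 100520196) is on the minus strand of chromosome 5 at 64271372 to 64278422 and has 10 exons and 1 TSS. The promoter of this receptor was accessible in all 8 lists and did not rank higher in spleen than elsewhere. The spleen peak covered 1017 bp from 64277918 to 64278934, had its summit at −105 bp, and reached −log10 p of 115 and 156 at IDR 0.00391. Percentiles were 99.1 in kidney, 98.4 in heart, 97.8 in newborn liver, 97.6 in adult liver, 96.5 in spleen, 96.4 in suckling liver, 90.2 in muscle and 50.8 in lung. In kidney, heart, newborn liver and adult liver both replicates (from 96.5 to 99.0) ranked above both spleen replicates (95.9 and 94.2). Suckling liver, at 96.0 and 97.2, also lay above spleen in both replicates although its merged percentile was lower. Muscle (87.4 and 96.0) and lung overlapped spleen. The lung value rests on 1 library, since the replicates gave −log10 p of 5.87 and 242 and percentiles of 47.1 and 98.4.

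Beyond its promoter, spleen had 3 more peaks at LTBR, all shared. The peak at −3439 bp (22.9 and 61.8, percentile 82.7, IDR 0.00954) and that at −17830 bp (29.9 and 59.1, percentile 86.8, IDR 0.00622) overlapped peaks of all other lists. The peak at +28799 bp (17.7 and 51.9, percentile 77.8, IDR 0.0169) overlapped those of all lists but muscle. All 4 LTBR peaks of spleen had an IDR of at most 0.05, and none was spleen-only. A region centred at −8560 bp was listed in each of the other 7 lists but not in spleen. Peaks of kidney and lung in it reached the TSSs of the neighbouring gene SCNN1A, a subunit of the epithelial sodium channel, which are annotated at −9107 and −9274 bp from the LTBR TSS on the opposite strand, and the peaks of the other 5 lists ended short of them. An intragenic site at +6481 bp was listed in kidney, newborn liver, lung, suckling liver and adult liver, and again not in spleen. LTBR was therefore the gene with the strongest spleen promoter peak of the 5 and the only one with several sites shared by all 8 lists.

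VCAM1 (GeneID 396925) is on the minus strand of chromosome 4 at 117496914 to 117511211 and has 8 exons and 1 TSS. Its surroundings held more spleen peaks than those of any other of the 5 genes, and most of these were spleen-only. Its promoter had 3 spleen peaks. The strongest covered 620 bp from 117510981 to 117511600 with a summit at −61 bp, −log10 p of 29.1 and 47.3, percentile 86.4 and IDR 0.00773. A weaker peak in an intron at 117510542 to 117510896 followed (9.21 and 6.91, percentile 43.8, IDR 0.430). Both overlapped promoter peaks of heart, kidney and liver at all 3 ages. The remaining promoter peak, from 117512141 to 117512431, had its summit at −999 bp, −log10 p of 11.8 and 26.2, percentile 67.0 and IDR 0.0399, and no other list had a peak there.

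Spleen ranked first among the lists for the strongest VCAM1 promoter peak, but not clear of all of them. Percentiles after the 86.4 of spleen (84.2 and 82.4 by replicate) were 77.7 in kidney, 77.5 in suckling liver, 77.1 in adult liver, 71.4 in heart and 12.7 in newborn liver. Kidney (74.2 and 85.5) and adult liver (82.8 and 70.2) overlapped spleen in their replicates, whereas suckling liver (74.8 and 72.9) and heart (58.5 and 72.5) did not. By IDR, adult liver (0.00391), suckling liver (0.00695) and kidney (0.00731) were lower than spleen (0.00773), and heart (0.101) and newborn liver (0.607) were higher. Newborn liver rested on a weak replicate 2, with −log10 p of 45.3 and 4.20 and percentiles of 63.3 and 7.46. Lung and muscle had no promoter peak. The position of the summit also differed. Spleen and kidney had it at −61 and −94 bp, before the TSS, in both replicates, in peaks of 620 and 726 bp. Heart, adult liver and suckling liver had it at +507, +472 and +841 bp, in wide peaks of 1195, 1489 and 1270 bp that spanned the TSS and reached into the gene. The newborn liver peak was also wide, at 1459 bp, and its replicates placed the summit at −96 and +789 bp. Spleen and kidney each had a weaker, separate promoter peak behind the TSS, with summits at +442 and +839 bp (percentiles 43.8 and 51.4). These lay within the span of the wide peaks, so the site behind the TSS was not missing in either list.

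Beside the promoter, VCAM1 had 7 further spleen peaks, 5 of them spleen-only. Going from upstream to downstream, the spleen-only peaks had summits at −24745 bp (percentile 40.2, IDR 0.229), −5339 bp (7.33 and 25.5, percentile 47.3, IDR 0.300), +10535 bp within an intron (percentile 21.1), +15876 bp just behind the gene (percentile 21.4) and +34074 bp (percentile 31.8). The last 3 had an IDR of 0.663, and soft-masked repeat sequence of the assembly made up 92.7% of the peak at +15876 bp, 58.3% of that at +34074 bp, 56.1% of that at −24745 bp and 26.8% of the spleen-only promoter peak. The shared peaks were one at +25986 bp with kidney (percentile 73.0, IDR 0.273) and one at −16399 bp with all lists but muscle (percentile 58.0, IDR 0.121). At the region border, the peak 24.6 kb from the gene was the last one inside, and the next one outside lay at 27.4 kb with percentile 41.4 and IDR 0.453. It was spleen-only as well. Muscle had no peak in the VCAM1 region. A site centred at −9961 bp that was listed in heart, kidney, newborn liver and adult liver was not listed in spleen.

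**Figure D2:**
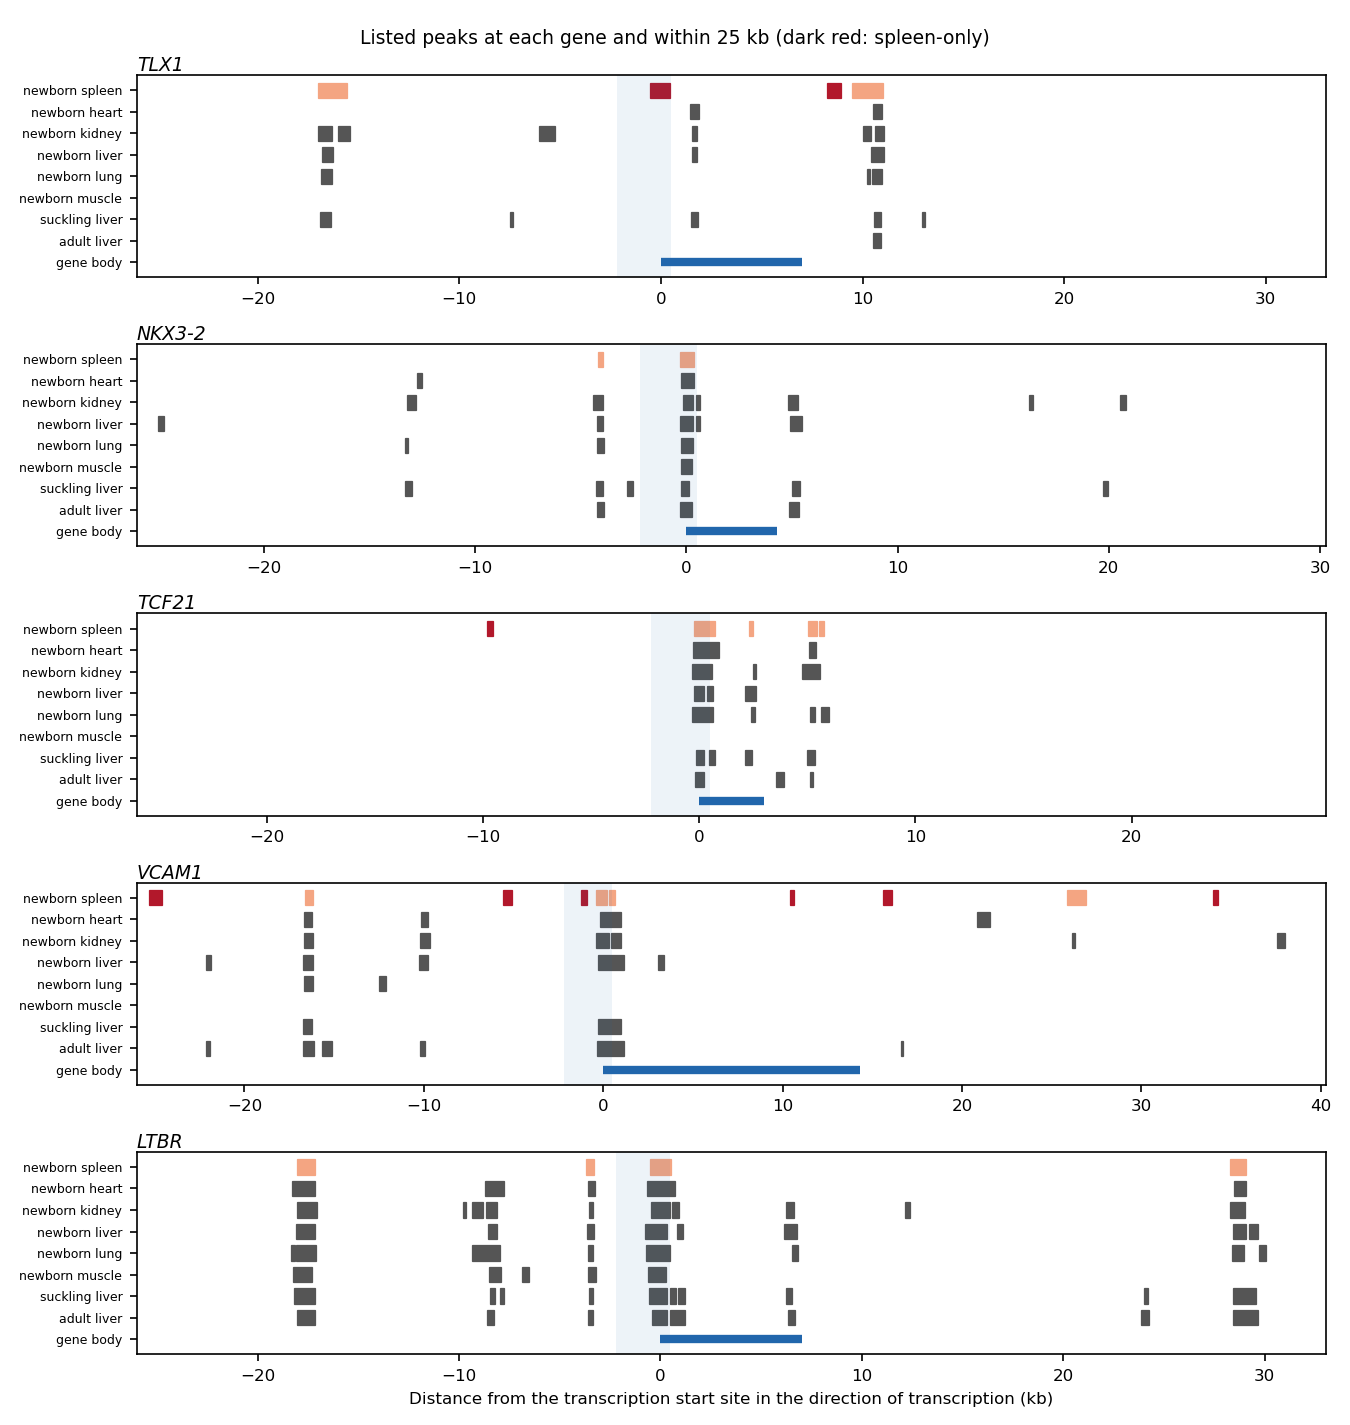
Peaks of each list as blocks by distance from the TSS (kb, in the direction of transcription) for the 5 genes, with spleen-only peaks in dark red, other spleen peaks in orange, other lists in grey, the gene body in blue and the promoter shaded. Of 10 spleen peaks at VCAM1, 6 are dark red, whereas NKX3-2 and LTBR have 0.

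A spleen-only promoter peak was present at TLX1 and VCAM1, 2 of the 5 genes, where 4.38% of PCGs (856) had one against the other newborn lists. Against all 7 other lists the same 2 genes had one, compared with 3.19% of PCGs (623). The promoter percentile was highest in spleen among the 6 newborn lists for TLX1, NKX3-2 and VCAM1, 3 of 5, where this held for 24.7% of the 13449 PCGs with a spleen promoter peak. Spleen-only peaks anywhere within 25 kb were found at TLX1, TCF21 and VCAM1, again 3 of 5, which is to be read against 51.3% of PCGs. TLX1 entered on such a peak, so these counts describe the genes and are no evidence about spleen stroma.

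Across the 5 regions spleen had 25 peaks, fewer than kidney with 32 and suckling liver with 27 and more than adult liver with 21, lung with 20, heart with 15 and muscle with 6. Newborn liver had 24. Relative to the length of the lists, spleen had 2.96 peaks per 10000 listed, lung 2.48, kidney 2.40, heart 2.06, muscle 1.05 and the liver lists from 1.91 to 2.00. Of the 25 spleen peaks 9 (36%) were spleen-only, and the share over all spleen peaks on chromosomes was 24.3%. These 9 were 6 at VCAM1, 2 at TLX1 and 1 at TCF21, and they overlapped no peak of suckling or adult liver either. Only 2 of the 9, the promoter peaks of TLX1 and VCAM1, had an IDR of at most 0.05. Joining the peaks of all lists gave 52 accessible regions, of which 23 included a spleen peak, 29 did not, 9 were made by spleen alone and 4 were common to all lists. The 4 common ones were the promoters of NKX3-2 and LTBR and both shared upstream sites of LTBR.

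**Figure D3:**
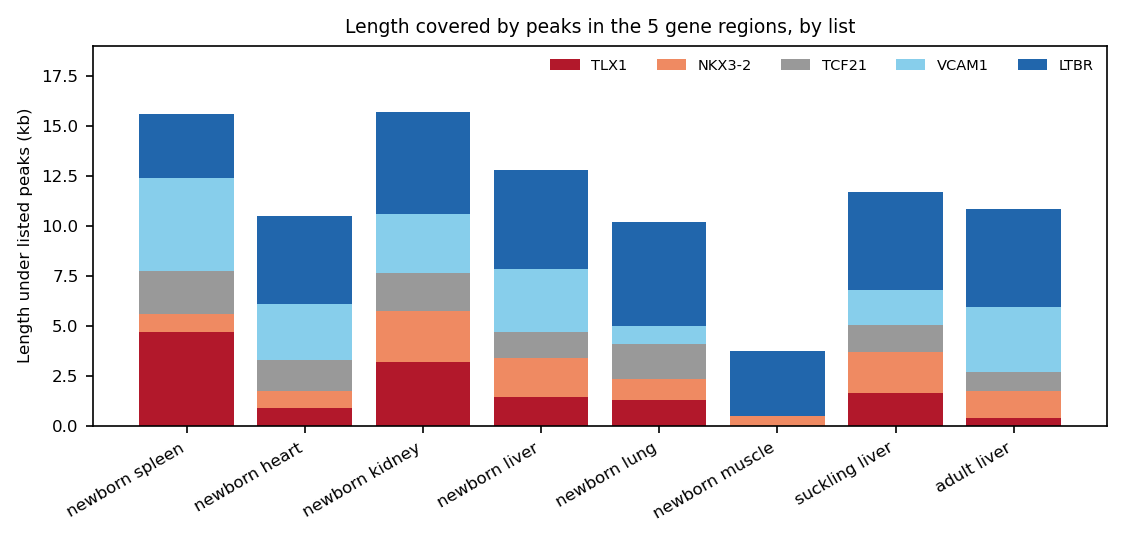
Length under listed peaks (kb) in the 5 gene regions, stacked by gene for each of 8 lists, with bars starting at 0. Spleen covers 15552 bp, close to the 15695 bp of kidney, but takes more of it from TLX1 (4662 bp) and VCAM1 (4688 bp).

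In the liver series, the promoters changed little in presence and more in rank. NKX3-2, TCF21, VCAM1 and LTBR each had a promoter peak at all 3 ages, and TLX1 had none at any. LTBR stayed at percentiles 97.8, 96.4 and 97.6 from newborn to adult. TCF21 stood at 82.9, 65.7 and 4.79, although the newborn replicates (47.5 and 81.1) overlapped those at 28 days (60.9 and 56.9). The adult replicates of TCF21 (2.96 and 34.2) lay below both earlier ages. VCAM1 stood at 12.7, 77.5 and 77.1, and both newborn replicates (63.3 and 7.46) lay below those at 28 days (74.8 and 72.9) and in adults (82.8 and 70.2). NKX3-2 stood at 80.8, 22.1 and 77.5, and its suckling replicates (14.2 and 62.8) lay below those of newborns (80.4 and 78.9) and adults (75.7 and 70.8). Stage and litter or sampling cannot be told apart with 1 list per age.

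Genes with the most similar profile were searched by the Euclidean distance over the 8 promoter percentiles, with 0 where no peak was listed. Nearest to TLX1 were LOC100512920 (distance 0.739), LOC110260934 (1.64) and KLF1 (6.82), an erythroid transcription factor whose promoter was likewise listed in spleen alone, at percentile 85.9. The neighbours of NKX3-2 were LOC100738744 (21.5), PBK (22.1) and PAQR4 (24.7). For TCF21 they were CELF6 (27.5), FAM19A5 (35.1) and LOC106508360 (36.9), and for VCAM1 they were HTRA3 (23.0), RNASE13 (34.5) and SGCB (35.6). LTBR had close neighbours, ZNRD1 (6.37), DBNDD2 (6.39) and CENPN (6.65), which like LTBR had high percentiles except in lung. Distances for TLX1 rest on a single nonzero value, since all 4 promoters were listed in spleen only, and likeness over 8 lists carries no test.

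A list of 15 further regulators of spleen patterning and of stroma was written from general knowledge. Promoter peaks were listed in spleen for 10 of the 15 (66.7%, against 68.8% of PCGs in that list). Kidney (75.1% of PCGs), newborn liver (73.5%) and lung (70.4%) also had 10 each. Heart had 9 (67.9% of PCGs), suckling liver 9 (74.8%), adult liver 6 (69.7%) and muscle 5 (61.4%). Regulators without a promoter peak in spleen were BARX1, TLX2, TLX3, GATA4 and TBX5, and the TLX1 paralogues TLX2 and TLX3 had none in any list. A spleen-only promoter peak was found at NR5A1, NKX2-3 and PDGFRA, 3 of 15 against 4.38% of PCGs. NKX2-3, a homeobox factor needed for normal spleen and gut vasculature, ranked at percentile 96.3 in spleen and at no more than 46.2 elsewhere, with a spleen-only peak at −1132 bp (6.73 and 8.51, IDR 0.663) beside its shared strongest one. PDGFRA, a receptor of mesenchymal cells, had promoter peaks in spleen alone, the strongest at percentile 80.9. A weaker one at −202 bp (14.6 and 16.3, percentile 73.2, IDR 0.169) was spleen-only. Whether the strongest overlapped a peak of another list outside the promoter window is not given here. NR5A1, the nuclear receptor SF-1 of adrenal and spleen development, had a weak spleen-only peak at +270 bp (17.8 and 6.42, percentile 40.1, IDR 0.473). Its promoter was also listed in lung (38.9) and newborn liver (21.1), by peaks elsewhere in the window.

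Some of the other regulators were singled out after their values were seen. NKX2-5, a homeobox factor of heart and spleen primordia, had a promoter peak in spleen (percentile 90.7) and heart (91.0) and in no other list. WT1, a zinc finger factor of mesothelium, kidney and spleen mesenchyme, stood at 90.4 in spleen, 85.1 in kidney, 46.2 in heart and 31.2 or lower in the other lists with a peak, and muscle and adult liver had none. NR2F2 was listed everywhere, with spleen at 95.4, heart at 7.06 and the other lists from 83.3 to 96.6. Of the 15 regulators, PDGFRA had promoter peaks in spleen alone, and 5 had them in all 8 lists, where 56.7% of PCGs had them.

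**Figure D4:**
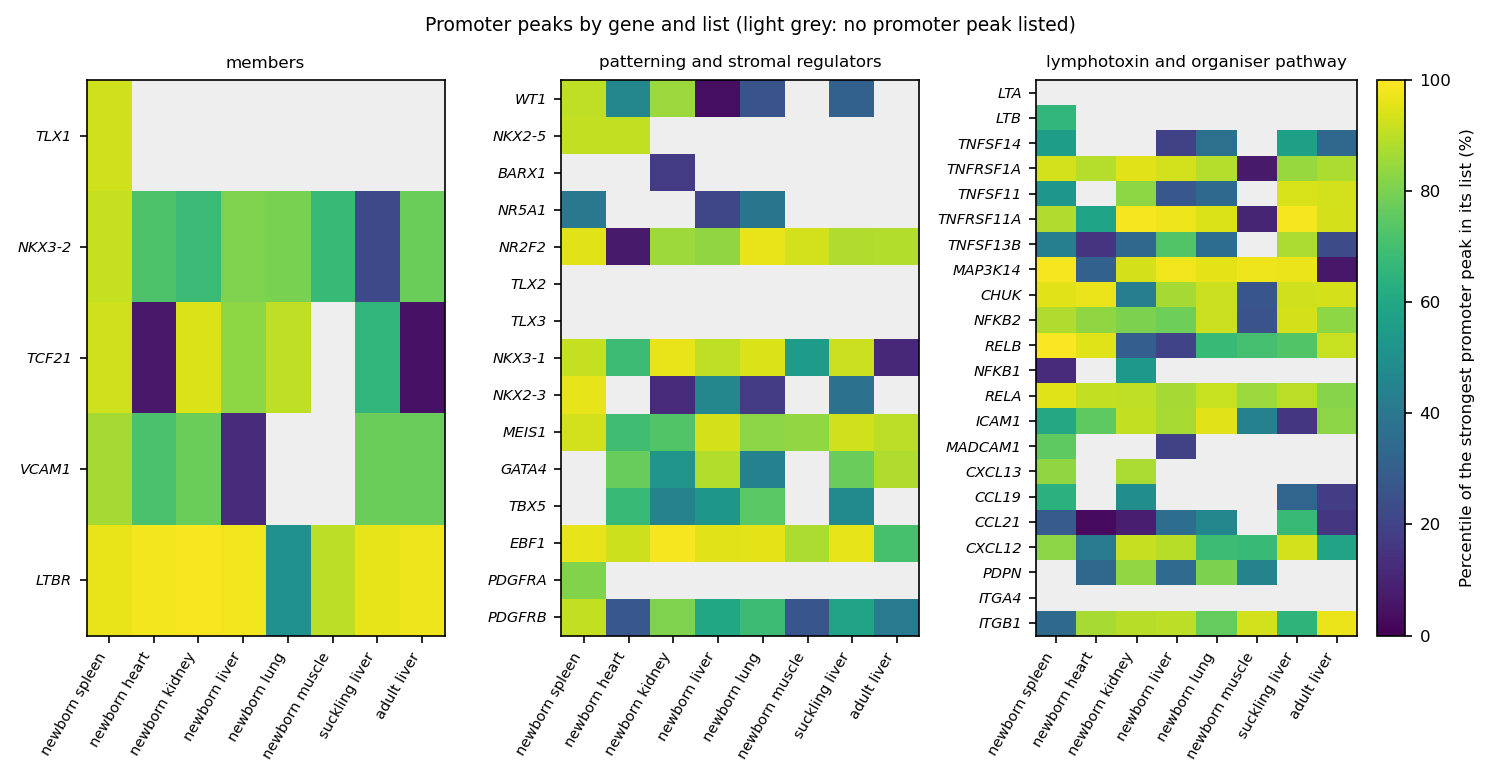
Percentile (%) of the strongest promoter peak as colour, with genes in rows and the 8 lists in columns, for the 5 genes and both lists of related genes, where light grey means that no promoter peak was listed. TLX1, PDGFRA and LTB are coloured in the spleen column alone, and NKX2-5 in spleen and heart.

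The lymphotoxin and stromal organiser pathway was covered by 24 genes written from general knowledge, of which 22 were found in the annotation and TRAF2 and TRAF3 were not. A promoter peak was listed in spleen for 19 of the 22 (86.4%, against 68.8% of PCGs), in kidney for 17 (77.3% against 75.1%), in newborn liver for 16 (72.7% against 73.5%), in lung for 15 (68.2% against 70.4%), in heart for 13 (59.1% against 67.9%) and in muscle for 11 (50% against 61.4%). Suckling liver had 15 (68.2% against 74.8%) and adult liver also 15 (68.2% against 69.7%). Kidney, newborn liver, lung and adult liver thus lay close to their background. The ligand genes were not alike. LTB, the membrane-bound chain of lymphotoxin made by lymphocytes, had a promoter peak in spleen alone, with a summit at −68 bp, −log10 p of 13.1 and 11.4, percentile 65.8 and IDR 0.365, whereas LTBR was listed everywhere. LTA had no promoter peak in any list. TNFSF14, a further ligand gene, was listed in spleen (55.6), suckling liver (56.7), lung (36.9), adult liver (33.7) and newborn liver (19.2). Of the signalling genes, MAP3K14 (NIK), the kinase of the alternative pathway, stood at 98.6 in spleen. It stood at 96.0 to 98.0 in newborn liver, muscle, suckling liver and lung, 93.6 in kidney, 31.0 in heart and 6.50 in adult liver. NFKB2 of the same pathway stood at 88.1 in spleen, below lung (92.2) and suckling liver (93.4), and the kinase gene CHUK at 95.4, below heart (96.9). NFKB1 was listed in spleen (11.8) and kidney (53.5) alone. RELB, a transcription factor of the alternative pathway, stood at 99.4 in spleen and ranked lower in all other lists, at 95.0 in heart, 91.8 in adult liver and 72.7 or less in the rest. RELA, of the canonical pathway, stood at 95.1 in spleen and at 81.7 to 91.4 elsewhere.

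Target genes of the pathway included 2 further genes with a spleen-only promoter peak. MADCAM1, a mucosal and splenic sinus addressin, had a promoter peak in spleen (percentile 75.4) and newborn liver (19.2) alone, and its spleen-only peak lay at −2040 bp (9.57 and 5.84, IDR 0.663). CXCL13, the chemokine that draws B cells into follicles, had one in spleen (83.6) and kidney (87.4) alone, with a spleen-only peak at +7 bp (8.86 and 15.3, percentile 56.5, IDR 0.119). With LTB this made 3 of 22 against the 4.38% of PCGs. PDPN, a marker of lymph node stroma, and ITGA4, a chain of the integrin that binds VCAM1, had no promoter peak in spleen, and ITGA4 had none in any list. ICAM1, an adhesion molecule often induced together with VCAM1, stood at 60.5 in spleen, below kidney (90.8), lung (95.5), newborn liver (86.9), adult liver (82.7) and heart (75.3).

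The sequences around the spleen summits differed between the genes in base composition. In the 300 bases around the summit of the strongest promoter peak, GC content was 65.3% for TLX1, 59.7% for NKX3-2, 62.3% for TCF21, 47.0% for VCAM1 and 73.7% for LTBR, and the median of 16152 such windows of all spleen promoter peaks was 65.7%. VCAM1 stood low, with GC at percentile 6.07 of the windows and a CpG observed-to-expected ratio of 0.242, against a median of 0.775. The ratio was 0.798 for TLX1 and between 0.561 and 0.593 for TCF21, LTBR and NKX3-2. The promoter listed in spleen alone was close to the median in composition, and the one most poor in CpG was VCAM1.

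Motifs were searched on both strands as exact letters. For NF-kB, the factor that acts behind LTBR, the letters were GGGNTTTCC, and VCAM1 alone of the 5 had a match, GGGATTTCC at −83 to −75 bp, near the spleen summit at −61 bp. Such letters were present in 2.04% of all spleen promoter windows and in 1.36% of the 45990 upstream stretches of 250 bases. A TATA box, searched as TATAAA, lay at −42 to −37 bp of VCAM1, where 4.53% of the summit windows and 8.52% of the upstream stretches held one. The same letters read on the other strand gave an overlapping match at −44 to −39 bp and a separate one at −225 to −220 bp.

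The remaining motifs were more common. NKX3-2 held CCAAT at −85 to −81 bp (33.0% of summit windows and 30.1% of upstream stretches) next to the SP letters GGGCGG at −80 to −75 bp (66.4% and 48.5%), both by its summit at −63 bp. LTBR held 3 SP matches in its 250 bases. An E-box, searched as CANNTG, was matched at 2 places in TLX1 and 1 each in TCF21 and LTBR (63.0% and 61.2%), and TLX1 also held 1 CCAAT box. TCF21 had the GATA letters AGATAA at −13 to −8 bp (5.18% and 7.20%), and the summit window of NKX3-2 also held a GATA match.

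Other letters were not found in the summit windows or the upstream stretches of any of the 5 genes. These were the NKX3 letters TAAGTG, which 5.51% of all summit windows and 6.08% of the upstream stretches held. They were also the homeodomain letters TAATTA, in 1.49% and 3.34%, and the ETS core, searched as CCGGAAG, in 14.9% and 8.19%. The spleen-only promoter peak of VCAM1 had no NF-kB match, 3 E-box matches and 1 CCAAT box, with a GC content of 46.0%. A match describes letters in a window and not the binding of a factor, and the absence of one is limited to the letters searched.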

How the data were processed

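ATAC-seq libraries of 8 groups with 2 replicates each were grouped by the labels alone. The authors aligned reads to Sscrofa11.1 with Bowtie2, filtered out duplicates and reads of mitochondria or low mapping quality with SAMtools 1.3.1, called peaks per replicate with MACS2 and matched replicates with the IDR tool. The deposited lists give for each peak the −log10 p of both replicates and the smaller of them, and the authors' score, a scaled IDR in which 540 stands for 0.05 and the cap of 1000 for 0.00391. Lists were not filtered on IDR, and they carry no read counts, so no interval from depth was computed.

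Intervals were joined with the RefSeq annotation of Sscrofa11.1, with 45998 promoters of 19560 genes, in Python 3.11.15 with pandas 2.3.3 and numpy 2.4.6. Sequences were read with pysam 0.24.0. Overlap required 1 bp. Percentiles were taken within each list. Interval code was tested on simulated data. The 5 genes, the related lists and the markers were chosen with earlier results of these data known, and lists of related genes come from general knowledge. Some genes of these lists are not reported here. Named were all 5 genes, the strongest promoter peak in each list, spleen-only promoter peaks, the 3 strongest spleen-only peaks of a region, the peaks beside the region borders, the 3 nearest profiles, and related genes with a spleen-only promoter peak. Other peaks and genes were named after their values were seen. Alternatives changed the overlap, the promoter length, the flank, the IDR limit, the number of peaks per list and the replicates used. No test was made.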

Additional observations from a re-analysis of the deposited data

How the results depend on the processing

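All 5 genes kept a spleen promoter peak under 4 alternatives, and those leaving out a replicate could not remove one, since each listed peak carries values of both. With replicates left out included, a spleen-only promoter peak was counted at 2 genes, TLX1 and VCAM1, under each of 7 alternatives. In the main setting both peaks already overlapped no peak of the other 7 lists. Leaving out a replicate, requiring 50% overlap or counting all 7 lists therefore could not make them shared. TLX1 was also chosen on its peak, so the constant count supports nothing further. An IDR of at most 0.05 in every list left 9 of the 25 spleen peaks and 2 of the 9 spleen-only peaks, and the TLX1 percentile was 71.8 in place of 92.7, since the weaker peaks had left the list. It was 89.2 among equal numbers of top peaks per list. A flank of 50 kb gave 54 spleen peaks, 17 of them spleen-only. Each replicate ranked alone put the TLX1 peak at 88.8 to 91.4. No paired analysis was made, although the same newborn animals gave all tissues. The values of both replicates are given instead.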
